A study of Homo sapiens with 6 samples.

Results

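A set of 10 genes that place, remove or read DNA methylation was followed in human prostate epithelial cells before and after malignant transformation by arsenite. They were chosen by symbol: the methyltransferase genes DNMT1, DNMT3A and DNMT3B with the recruiting factor UHRF1, the demethylation genes TET1, TET2, TET3 and TDG, and the reader genes MBD2 and MBD3. All 10 of 10 were measured by features with a single gene symbol, among 18417 genes in all, and each is given by its brightest feature. CAsE-PE is the malignant descendant of RWPE-1, grown continuously in 5 µM sodium arsenite, and had 3 arrays, after 30, 33.5 and 35 weeks of exposure. RWPE-1, an immortal non-tumorigenic line from normal adult prostate epithelium that carries human papillomavirus 18 sequences, had 3 untreated arrays, from passages 18, 38 and 42. Both were grown in the same keratinocyte serum-free medium with pituitary extract and epidermal growth factor. CAsE-PE is 1 transformed line of 1 parent line. The labels give no passage for the exposed cells and name no untreated cells kept for the same number of weeks. They also leave unsaid whether the arrays of a line came from separate cultures, so a p-value here measures only how far these arrays spread, which may be technical.

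In vertebrate cells DNA methylation sits mostly on cytosines of CpG dinucleotides. DNMT3A and DNMT3B set it on unmethylated DNA, and DNMT1, brought to replicating DNA by UHRF1, copies it to the new strand. TET enzymes oxidise the methyl group with the help of 2-oxoglutarate, and the glycosylase TDG then cuts out oxidised bases so that repair restores plain cytosine. MBD2 binds methylated CpG and MBD3 is its close relative, and either can be part of the NuRD complex, which removes histone acetyl groups and remodels chromatin.

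Values are log2(intensity + 1) of single-colour whole-transcript arrays, and a difference is CAsE-PE minus RWPE-1 on that scale, with its standard error (SE) from limma. Adjusted p-values are from limma with Benjamini-Hochberg adjustment over all genes, and a gene passed at an adjusted p under 0.05. Array medians lay between 91.7 and 97.2 intensity units, and log2 values correlated at 0.985 to 0.995 between arrays of a group and at 0.957 to 0.969 between groups. The basal keratin gene KRT5 (−0.12, SE 0.11) and the luminal keratin genes KRT8 (0.09, SE 0.11) and KRT18 (0.04, SE 0.10) did not pass the threshold. Of 7 basal markers measured 3 fell, namely KRT14 (−1.60, SE 0.31, adjusted p = 0.00748), KRT15 (−1.77, SE 0.34, adjusted p = 0.00714) and LAMB3 (−1.48, SE 0.15, adjusted p = 0.000266), and TRIM29 rose (0.48, SE 0.14, adjusted p = 0.043). TP63 was not analysed here. Over all genes 9.04% passed as higher and 8.71% as lower. Of 7 fibroblast, 6 leukocyte and 7 endothelial markers measured, 1 of each list lay outside the dimmest 33.3% of all genes, and 4 fell: CD68 (−0.89), which was bright, and the dim CD14 (−0.43), PDGFRB (−0.32) and ERG (−0.87). Their part in the results for the methylation genes was not tested. No detection call accompanied the intensities used here, so a dim value cannot be told from background.

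The methylation genes differed little between the lines as a group, and the only members that passed were lower in CAsE-PE. TET1 and MBD3 fell, 0 members rose, and the other 8 missed the threshold; by unadjusted p under 0.05 the limma fit gave 3 lower and 0 higher, and no alternative fit gave a higher member. Over all genes 17.7% passed, 9.04% higher and 8.71% lower, so 2 lower of 10 is to be read against 8.71%. The median difference of the 10 was −0.075 (range −0.39 to 0.18), beside −0.06 over all genes. Their median size of difference, without sign, was 0.155 beside 0.188 over all genes, and 0 of the 10 differed by 2-fold or more, as 684 of the 18417 did. The 3 CAsE-PE arrays lay apart from the 3 RWPE-1 arrays for 3 members, TET1, MBD3 and TET3, against 38.9% of all genes.

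**Figure D1:**
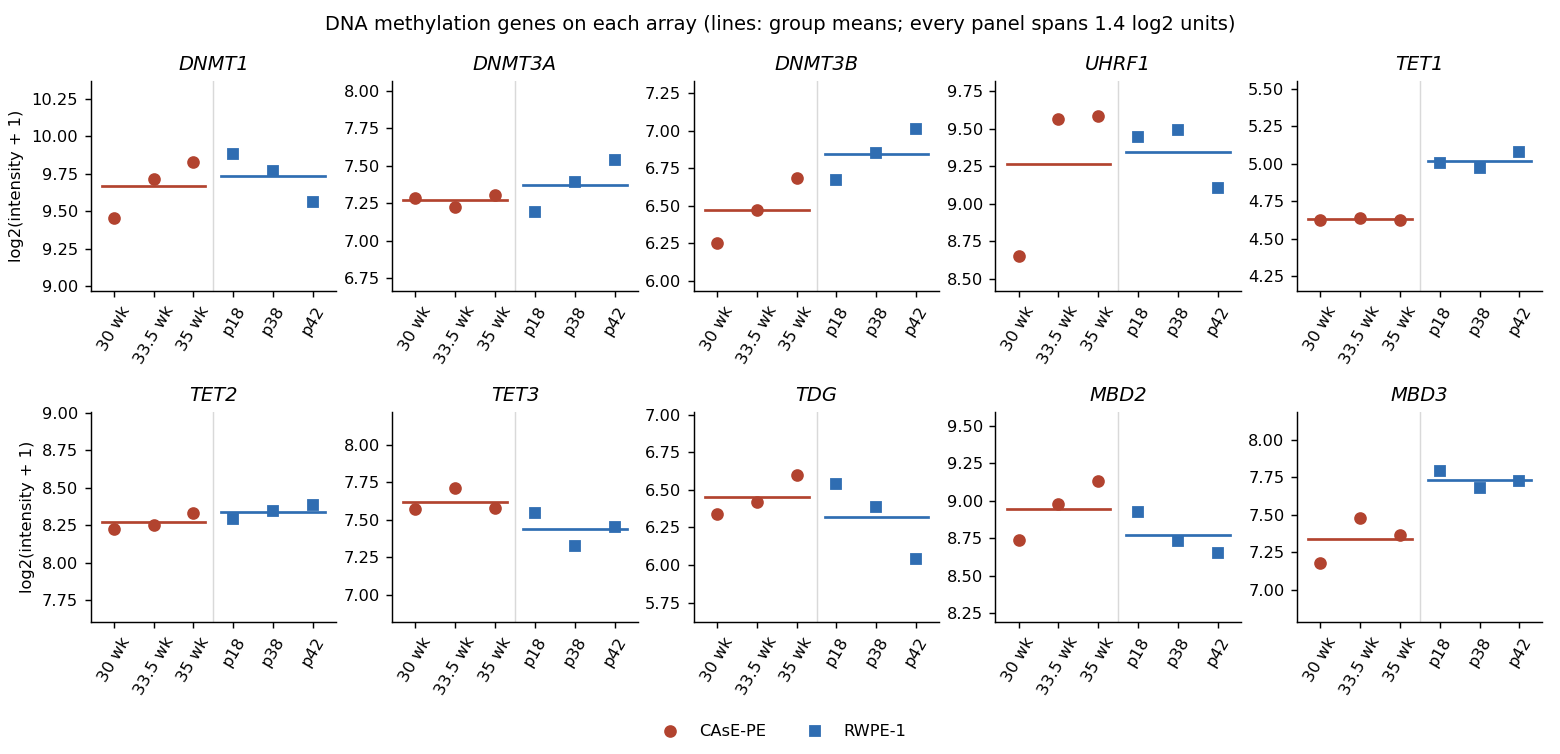
Level of each methylation gene on the 3 CAsE-PE arrays (circles, by weeks of arsenite) and the 3 RWPE-1 arrays (squares, by passage) as log2(intensity + 1), with lines at the group means. TET1 and MBD3 sit lower on all CAsE-PE arrays, TET3 sits slightly higher, and the other genes overlap between the lines.

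Of the writers, the maintenance methyltransferase gene DNMT1 stood at 9.45, 9.72 and 9.83 on the CAsE-PE arrays of 30, 33.5 and 35 weeks, against 9.88, 9.76 and 9.56 in RWPE-1 at passages 18, 38 and 42. The groups overlapped, with the lowest value at 30 weeks and the highest at passage 18. Its difference was −0.07 (SE 0.13, 95% interval −0.37 to 0.23, adjusted p = 0.736), and its sign turned without the 30-week array (0.036) or the passage 18 array (0.001). UHRF1 binds hemimethylated CpG and brings DNMT1 to it. Its levels were 8.65, 9.57 and 9.59 in CAsE-PE, against 9.45, 9.49 and 9.11 in RWPE-1. The 30-week value stood 0.92 or more below the other CAsE-PE values, and the later CAsE-PE arrays were above all RWPE-1 arrays. UHRF1 differed by −0.08 (SE 0.24, interval −0.62 to 0.46, adjusted p = 0.838), and by 0.23 (adjusted p = 0.292) without the 30-week array.

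The de novo methyltransferase gene DNMT3B was dimmer in CAsE-PE without passing the threshold. It had 6.25, 6.47 and 6.68 in CAsE-PE, against 6.67, 6.85 and 7.01 in RWPE-1. Only the 35-week array reached the RWPE-1 range, just above passage 18. Its difference was −0.37 (SE 0.14, interval −0.69 to −0.06), with an unadjusted p of 0.024 and an adjusted p of 0.0965, between 0.0711 and 0.225 with 1 array left out. The 24 neighbouring genes of DNMT3B on chromosome 20 had a median difference of 0.095, and with it taken off the gene differed by −0.47 and passed (adjusted p = 0.0429). That p-value keeps the gene's own SE and leaves out the uncertainty of the neighbours' median. Its partner enzyme gene DNMT3A had 7.29, 7.22 and 7.30 in CAsE-PE, against 7.19, 7.39 and 7.54 in RWPE-1. The CAsE-PE values lay inside the RWPE-1 range, and the difference was −0.10 (SE 0.11, interval −0.36 to 0.15, adjusted p = 0.550).

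Of the erasers, the oxidase gene TET1 fell. It had 4.62, 4.64 and 4.63 in CAsE-PE, against 5.00, 4.97 and 5.08 in RWPE-1. The CAsE-PE arrays lay within 0.02 of each other and all below the RWPE-1 arrays. The means were 4.63 ± 0.01 in CAsE-PE and 5.02 ± 0.06 in RWPE-1 (SD, n = 3 each), a difference of −0.39 (SE 0.09, interval −0.60 to −0.18, 1.31-fold, limma adjusted p = 0.0195). The call was narrow: its adjusted p was 0.0526 without the 33.5-week array, 0.0667 without the 35-week array, 0.0572 without passage 18, 0.0629 without passage 38 and 0.0587 after quantile normalisation, when it differed by −0.28. With a pseudocount of 16 the difference was −0.25 (adjusted p = 0.0443). TET1 was also the only member in the dimmest 33.3% of genes, where a fold change is understated and background cannot be told from signal. Of the 1000 genes nearest to TET1 in mean level, 77.0% were lower in CAsE-PE, with a median difference of −0.114, and 4.40% passed as lower. The part of this general shift in the TET1 value was not tested beyond the quantile normalisation and the centring of array medians. With array medians centred TET1 still passed in limma (adjusted p = 0.0238). Its 24 neighbours on chromosome 10 had a median difference of −0.03.

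The other oxidase genes of the family did not pass. TET2 had 8.23, 8.25 and 8.33 in CAsE-PE, against 8.29, 8.35 and 8.38 in RWPE-1, with overlapping groups. It differed by −0.07 (SE 0.09, interval −0.28 to 0.14, adjusted p = 0.636), and its second feature by 0.05 (SE 0.11). TET3 had 7.57, 7.72 and 7.58 in CAsE-PE, against 7.54, 7.33 and 7.45 in RWPE-1. Every CAsE-PE array was above every RWPE-1 array, by 0.03 at the closest. The difference of TET3 was 0.18 (SE 0.10, interval −0.05 to 0.42, adjusted p = 0.260). TDG, the thymine DNA glycosylase gene, had 6.34, 6.42 and 6.60 in CAsE-PE, against 6.54, 6.39 and 6.04 in RWPE-1. Its low point was the passage 42 array, without which its difference of 0.13 (SE 0.14, adjusted p = 0.548) became −0.009.

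Both readers were measured, and their differences had opposite signs, with a call for MBD3 alone. MBD3 had 7.18, 7.48 and 7.36 in CAsE-PE, against 7.79, 7.68 and 7.72 in RWPE-1. No CAsE-PE array reached the lowest RWPE-1 array, although the 30-week and 33.5-week values were 0.30 apart. The means were 7.34 ± 0.15 in CAsE-PE and 7.73 ± 0.06 in RWPE-1 (SD, n = 3 each), a difference of −0.39 (SE 0.11, interval −0.64 to −0.14, 1.31-fold, limma adjusted p = 0.0372). Leaving out the 33.5-week array kept the call (adjusted p = 0.0387). It was lost without the 30-week array (0.0853), the 35-week array (0.0952), passage 18 (0.113), passage 38 (0.0927) or passage 42 (0.0667). The 24 neighbours of MBD3 on chromosome 19 had a median difference of −0.18, and with it taken off MBD3 differed by −0.21 (adjusted p = 0.204). MBD2 had 8.74, 8.97 and 9.13 in CAsE-PE, against 8.92, 8.73 and 8.65 in RWPE-1. The groups overlapped, and the difference was 0.18 (SE 0.13, interval −0.11 to 0.47, adjusted p = 0.369).

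**Figure D2:**
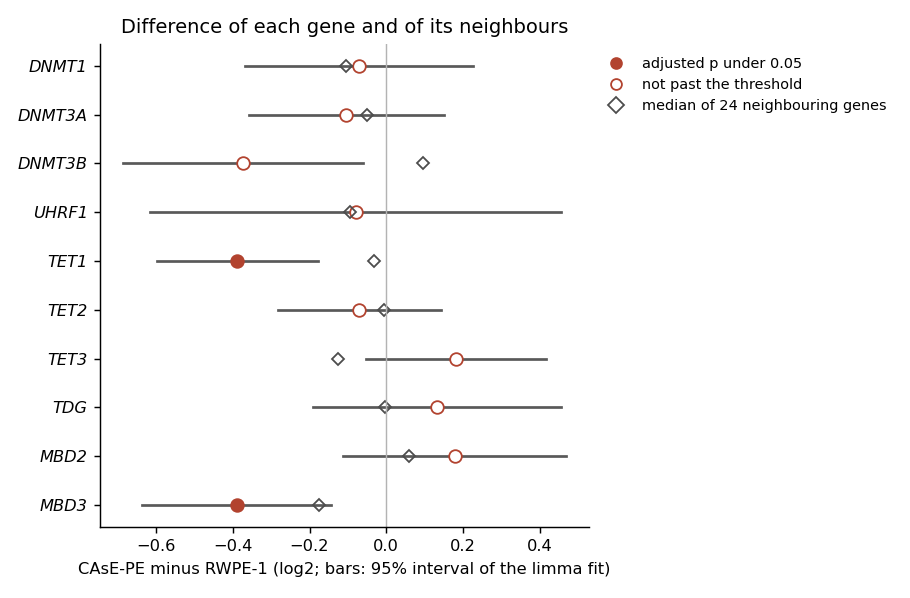
CAsE-PE minus RWPE-1 difference of each gene (circles, log2, with the 95% interval of the limma fit, n = 3 arrays per line) and the median difference of its 24 neighbouring genes (diamonds). The intervals of DNMT3B, TET1 and MBD3 lie below 0, and those of the other 7 include 0; the neighbours of MBD3 are themselves lower (−0.18).

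The promoter sequences of both genes that fell are given because methylation acts on CpGs. They are RefSeq windows of GRCh38.p14, from 250 bases before to 50 after an annotated start, shown from 5′ to 3′ on the gene's strand with each CpG in capitals. All 10 genes matched, with 21 windows. The windows held a median of 28 CpGs beside 14 over the 35116 windows counted. The windows counted do not cover every chromosome, so background values from them do not describe the whole genome. MBD3 had 1 window, chr19:1592816-1593115 on the minus strand, with 40 CpGs. TET1 had 3 windows, and the one at its most upstream start, chr10:68560087-68560386 on the plus strand, held 10. DNMT3B, at 3, held the fewest of the 21. The sources used here do not say which start the array features read, and methylation itself was not measured.
MBD3: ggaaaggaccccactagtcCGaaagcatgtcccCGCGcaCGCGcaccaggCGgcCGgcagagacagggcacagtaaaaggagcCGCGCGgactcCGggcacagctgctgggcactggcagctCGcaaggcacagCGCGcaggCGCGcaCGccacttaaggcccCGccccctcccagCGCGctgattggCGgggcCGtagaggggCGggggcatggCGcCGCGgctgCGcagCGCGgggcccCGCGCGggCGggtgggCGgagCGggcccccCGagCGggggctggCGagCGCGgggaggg
TET1: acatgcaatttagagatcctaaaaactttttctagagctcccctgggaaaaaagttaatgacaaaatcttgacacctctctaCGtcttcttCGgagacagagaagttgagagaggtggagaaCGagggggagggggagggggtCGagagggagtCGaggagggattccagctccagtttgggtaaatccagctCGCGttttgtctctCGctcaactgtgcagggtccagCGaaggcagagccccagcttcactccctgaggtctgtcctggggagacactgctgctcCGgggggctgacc

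Across the arrays of a line 0 of the 10 genes passed for weeks or for passage, and the CAsE-PE range ran between 0.019 for TET1 and 0.935 for UHRF1. Of the 10 members, 9 had their lowest CAsE-PE value at 30 weeks, against 41.4% of genes outside the dimmest 33.3%. Over all genes, which include the dim TET1, the share was 37.7%. After quantile normalisation it was 7 of 10 members, against 39.4% of genes outside the dimmest 33.3%. The margin below the next CAsE-PE array was small for TET1 (0.005), TET3 (0.008) and TET2 (0.025), and reached 0.916 for UHRF1. DNMT1, DNMT3B, UHRF1, TET2, TDG and MBD2 stood in the order of weeks, 6 of 10, beside 19.8% of genes outside the dimmest 33.3%. UHRF1 had the steepest slope among the members, 0.20 per week (SE 0.05), with an unadjusted p of 0.0015 and an adjusted p of 0.121 in a limma model with 2 residual degrees of freedom, in which 0.250% of all genes passed for weeks. For weeks 0 of the 10 passed in limma, where DNMT3B was the other member with an unadjusted p under 0.05 (0.0472) and 11.3% of all genes had one. For passage 0 members passed, as did 0.0217% of all genes, and 0 members had an unadjusted p under 0.05 beside 5.82% of all genes. In RWPE-1 the slope per 10 passages was 0.13 (SE 0.07) for DNMT3A and 0.125 (SE 0.07) for DNMT3B, and it was −0.17 (SE 0.08) for TDG and −0.11 (SE 0.07) for DNMT1. These slopes did not pass (adjusted p between 0.852 and 0.876).

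Some genes of DNA replication were also low on the 30-week array. DNMT1, UHRF1 and the replication clamp PCNA act at replication forks, and 29 genes of S phase and proliferation were read beside them. Relative to the CAsE-PE mean, UHRF1 stood at −0.62 and DNMT1 at −0.21 at 30 weeks. All 6 measured subunit genes of the MCM replicative helicase were lowest there, from −0.265 for MCM5 to −0.64 for MCM3. The helicase cofactor genes CDC45 (−0.61) and GINS2 (−0.51), the chromatin assembly gene CHAF1B (−0.65) and the G1 cyclin gene CCNE2 (−0.49) were low with them. The chromatin assembly gene CHAF1A (−0.07) and the ribonucleotide reductase genes RRM1 (−0.12) and RRM2 (0.03) were closer to the mean. At 30 weeks 18 of the 29 were lowest, 62.1% beside 41.4% of genes outside the dimmest 33.3%. Genes of later cell cycle phases were high on the same array: the topoisomerase gene TOP2A stood at 0.48, the cyclin A gene CCNA2 at 0.45, the spindle checkpoint gene BUB1 at 0.42 and the spindle kinase gene AURKA at 0.39. In all 10 of the 29 were highest there, among them the replication licensing gene CDT1 (0.34), a share no higher than the 36.6% of genes outside the dimmest 33.3%. This division was read after the values were seen. In bulk RNA, fewer cells in a phase and less RNA per cell cannot be told apart. The second UHRF1 feature, at 6.37, 6.38 and 6.20 in CAsE-PE and 6.29, 6.22 and 6.57 in RWPE-1, lacked the low 30-week value. Its difference was −0.04 (SE 0.12).

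**Figure D3:**
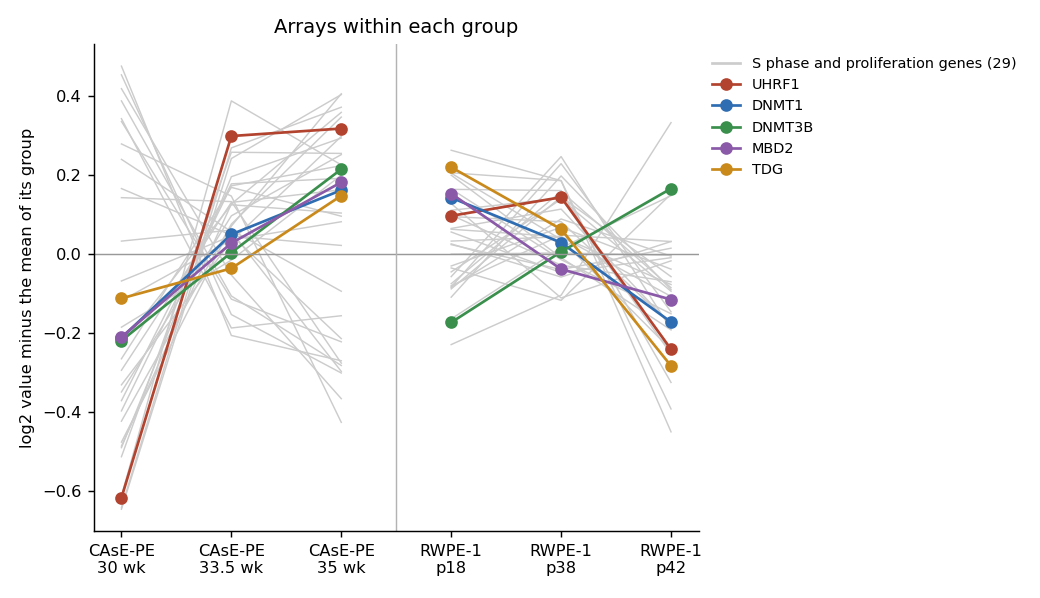
Log2 value of UHRF1, DNMT1, DNMT3B, MBD2 and TDG on each array minus the mean of its line, with 29 genes of S phase and proliferation in grey. At 30 weeks UHRF1 (−0.62) lies with the lowest replication genes, while some grey lines, among them TOP2A (0.48), are high.

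Between the lines the S phase and proliferation genes held 1 rise and 1 fall, beside 9.04% higher and 8.71% lower over all genes. The helicase gene MCM5 rose (0.66, SE 0.13, adjusted p = 0.00728) and its partner MCM7 fell (−0.57, SE 0.16, adjusted p = 0.0402), the other 27 did not pass, and the median was 0.08. Neighbours of MCM5 on chromosome 22 had a median difference of 0.455. The call of MCM7 was lost without the 30-week, 33.5-week, passage 18 or passage 38 array (adjusted p up to 0.140). Without the 30-week array 6 of these 29 genes were higher and 0 lower, beside 1665 higher and 1486 lower of all 18417 genes in that fit. The replication clamp gene PCNA differed by −0.43 (SE 0.165, adjusted p = 0.106), beside a median of −0.53 for its neighbours on chromosome 20.

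Promoter letters of the E2F type, which are known from cell cycle genes, are shown for DNMT1 and UHRF1. The letters searched were TTTGGCGC, TTTCCCGC, TTTCGCGC and TTTGCCGC, on both strands, with matches in capitals. They stood in 3 of the 21 windows, 1 of DNMT1 and 2 of the 3 of UHRF1, and in 3.31% of the 35116 windows counted. The DNMT1 window is chr19:10194904-10195203 on the minus strand. The UHRF1 windows, chr19:4909251-4909550 and chr19:4909894-4910193 on the plus strand, belong to different annotated starts. A match is a description of letters, not a bound site.
DNMT1: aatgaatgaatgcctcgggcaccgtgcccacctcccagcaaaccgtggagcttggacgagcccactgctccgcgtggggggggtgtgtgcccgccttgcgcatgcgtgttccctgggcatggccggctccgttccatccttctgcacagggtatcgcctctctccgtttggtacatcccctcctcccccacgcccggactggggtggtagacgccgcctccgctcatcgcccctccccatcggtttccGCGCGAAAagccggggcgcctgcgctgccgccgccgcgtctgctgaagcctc
UHRF1, upstream start: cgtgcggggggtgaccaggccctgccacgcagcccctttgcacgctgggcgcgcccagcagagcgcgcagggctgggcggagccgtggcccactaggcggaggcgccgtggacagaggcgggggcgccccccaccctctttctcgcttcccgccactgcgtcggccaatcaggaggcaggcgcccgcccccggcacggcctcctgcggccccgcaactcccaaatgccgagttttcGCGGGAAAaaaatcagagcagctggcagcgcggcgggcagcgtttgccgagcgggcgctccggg
UHRF1, next start: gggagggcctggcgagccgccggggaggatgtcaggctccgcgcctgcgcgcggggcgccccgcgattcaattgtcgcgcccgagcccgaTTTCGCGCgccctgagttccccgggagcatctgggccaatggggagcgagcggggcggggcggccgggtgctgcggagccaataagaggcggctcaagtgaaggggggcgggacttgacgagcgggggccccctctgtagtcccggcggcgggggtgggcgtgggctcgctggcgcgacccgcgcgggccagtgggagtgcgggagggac

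Of 18 partners of the writers and erasers 3 rose and 0 fell, beside 9.04% higher and 8.71% lower over all genes. The other 15 missed the threshold, with a median difference of −0.013, and by unadjusted p 5 were higher and 2 lower. With array weights limma called 2 partners lower, and without the 30-week array 1. CXXC5, a CpG-binding protein known to lower TET2 protein in cultured cells, had 8.81, 8.94 and 9.23 in CAsE-PE, against 7.56, 7.69 and 8.27 in RWPE-1. Every CAsE-PE array was above the RWPE-1 arrays, and the difference was 1.15 (SE 0.19, 2.22-fold, adjusted p = 0.00332), past the threshold with any 1 array left out (up to 0.0192). OGT, the O-GlcNAc transferase that binds TET proteins, rose by 0.56 (SE 0.15, adjusted p = 0.0335), and the zinc finger gene SALL4 by 0.55 (SE 0.14, adjusted p = 0.0293). The OGT call was lost without the 30-week, 35-week, passage 18 or passage 38 array (up to 0.131) and after quantile normalisation (0.0656), and that of SALL4 without the 30-week, 33.5-week, passage 18 or passage 38 array (up to 0.0941). The chromatin remodeller gene HELLS, needed for methylation of repeats in mouse, differed by −0.39 (SE 0.21, adjusted p = 0.230), and the UHRF1 relative UHRF2 by 0.335 (SE 0.16, adjusted p = 0.174).

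Of 11 genes listed as other methyl-CpG readers 3 rose and 0 fell, beside 9.04% higher and 8.71% lower over all genes. The list includes genes for proteins with an MBD-like domain, and whether each protein binds methylated CpG was not examined here. Among so few genes, 0 falls is near the background. The other 8 missed the threshold, and 9 of the differences were positive, with a median of 0.18 beside −0.06 over all genes. By unadjusted p 4 were higher and 0 lower, and no alternative fit called one lower. ZBTB38, a zinc finger protein that binds methylated CpG, had 11.00, 10.71 and 10.87 in CAsE-PE, against 10.19, 10.29 and 10.24 in RWPE-1. These groups were 0.42 apart at the closest, and the difference was 0.62 (SE 0.11, adjusted p = 0.00431). The histone H3K9 methyltransferase genes SETDB2 (0.58, SE 0.13, adjusted p = 0.0137) and SETDB1 (0.42, SE 0.11, adjusted p = 0.0309), which carry an MBD-like domain, rose as well. SETDB2 lies in the dimmest 33.3%, and the call of SETDB1 held without the 33.5-week array alone (adjusted p up to 0.0825 without another). The repair reader MBD4 differed by 0.18 (SE 0.10, adjusted p = 0.239) and MBD1 by 0.28 (SE 0.11, adjusted p = 0.115).

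The NuRD complex, in which MBD2 and MBD3 stand, held 1 fall among 12 other measured subunit genes, beside 8.71% lower over all genes. These 12 held 0 rises and had a median of −0.10. MBD3, which fell as given above, is not counted among them. The count lower was 2 with a pseudocount of 16, after quantile normalisation, with the dimmest 33.3% left out or without passage 42, 3 with array weights, and 0 without the 35-week, passage 18 or passage 38 array. MTA2, a scaffold subunit, had 9.55, 9.68 and 9.63 in CAsE-PE, against 10.02, 9.996 and 10.01 in RWPE-1. The lines did not overlap, and MTA2 fell (−0.39, SE 0.09, adjusted p = 0.0200), a call lost without the 35-week, passage 18 or passage 38 array (up to 0.0744). The deacetylase gene HDAC2 differed by −0.36 (SE 0.11, adjusted p = 0.0532). The remodeller genes CHD4 (−0.008, SE 0.10) and CHD3 (0.03, SE 0.11) were close to 0. By unadjusted p 3 of these 12 subunit genes were lower and 0 higher.

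Base excision repair, the last step after TDG, held 1 fall and 0 rises among 13 genes. Their median difference was 0.048, and over all genes 8.71% passed as lower and 9.04% as higher. PARP1, the strand break sensor, fell (−0.58, SE 0.15, adjusted p = 0.0251), a call lost without the 30-week, 33.5-week, passage 18 or passage 38 array (up to 0.104), and its neighbours on chromosome 1 had a median of −0.31. The endonuclease gene APEX1 (0.048, SE 0.10) and the scaffold gene XRCC1 (−0.07, SE 0.11) did not pass. By unadjusted p, 2 repair genes were higher and 1 lower.

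Of 20 genes that supply the methyl donor S-adenosylmethionine and folate units, 2 rose, 1 fell and 17 missed the threshold, no larger a share than the 17.7% of all genes that passed, with a median of 0.089. The mitochondrial folate enzyme gene MTHFD2 had 11.07, 10.68 and 10.70 in CAsE-PE, against 9.65, 9.84 and 10.44 in RWPE-1. It rose by 0.84 (SE 0.20, adjusted p = 0.0195), although the passage 42 value came within 0.24 of CAsE-PE, and the call was lost without passage 18 or passage 38 (up to 0.0798). AHCYL2, related to the enzyme that clears S-adenosylhomocysteine, was higher by 0.52 (SE 0.155, adjusted p = 0.0476), with neighbours on chromosome 7 at 0.46, and passed without 1 of the arrays left out in turn, the 33.5-week one (up to 0.145), and not after quantile normalisation (0.0799). PEMT, which uses the donor to make phosphatidylcholine, fell (−0.60, SE 0.16, adjusted p = 0.0340), a call lost without the 35-week, passage 18, passage 38 or passage 42 array (up to 0.105). The donor synthase gene MAT2A differed by −0.26 (SE 0.16, adjusted p = 0.292) and the hydrolase gene AHCY by 0.25 (SE 0.10, adjusted p = 0.110). The arsenic methyltransferase AS3MT, which draws on the same donor, had no single-symbol feature and was not analysed here.

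Enzymes around 2-oxoglutarate, the cosubstrate of the TET oxidases, held 2 rises and 1 fall among 8 measured. Their median difference was 0.245, and over all genes 9.04% passed as higher and 8.71% as lower. IDH2, which makes 2-oxoglutarate in mitochondria, rose (0.48, SE 0.10, adjusted p = 0.0132), as did the succinate dehydrogenase gene SDHA (0.44, SE 0.10, adjusted p = 0.0138). The call of IDH2 was lost without the 35-week or passage 38 array (up to 0.0693), and that of SDHA without the 33.5-week, 35-week or passage 38 array (up to 0.0695). IDH3B, a subunit of the other mitochondrial isocitrate dehydrogenase, had 8.92, 9.10 and 9.01 in CAsE-PE, against 9.66, 9.80 and 9.70 in RWPE-1. It fell by 0.71 (SE 0.10, adjusted p = 0.00156) beside a median of −0.51 for its neighbours on chromosome 20.

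Germline genes that promoter methylation is known to silence in somatic cells did not pass in either direction. Of 21 measured, limma called 0 higher and 0 lower, beside 9.04% higher and 8.71% lower over all genes. Of the same 21, 0 had an unadjusted p under 0.05, and 2 lay outside the dimmest 33.3%. Their differences ran between −0.21 and 0.085, with a median of −0.06 beside −0.12 for all genes of the dimmest 33.3%. DAZL, a germ cell RNA-binding protein gene often used as a sign of lost methylation, differed by 0.08 (SE 0.11, adjusted p = 0.618), and the piRNA pathway gene MAEL by 0.010 (SE 0.13, adjusted p = 0.965). At this brightness a small rise from background would be compressed.

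**Figure D4:**
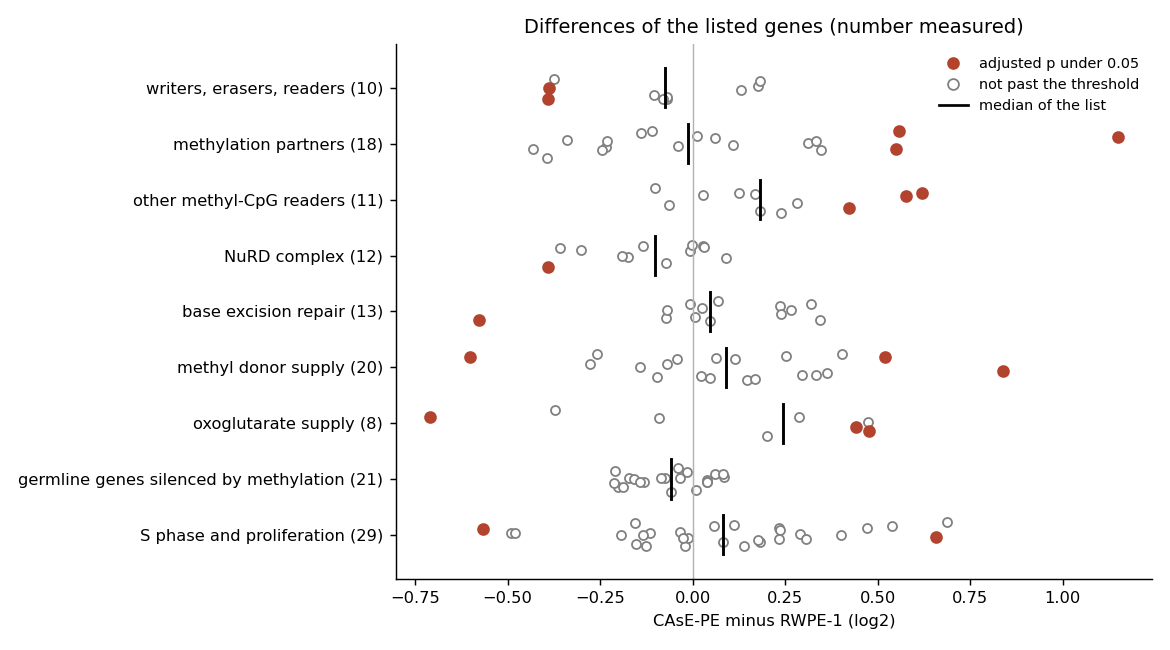
CAsE-PE minus RWPE-1 difference (log2) of every measured gene in the methylation set and in 8 related lists, with filled points for genes past an adjusted p of 0.05 and a bar at each list's median. Genes listed as other methyl-CpG readers lie mostly to the right of 0 (median 0.18), germline genes stay between −0.21 and 0.085, and CXXC5 (1.15) is the farthest point.

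The genes whose profile over the 6 arrays was most like that of the 2 members that fell were found by Pearson correlation among genes outside the dimmest 33.3%. For TET1 these were NFIX (r = 0.998, difference −0.96), RUNX2 (r = 0.997, −1.08) and SERINC5 (r = 0.997, −0.63). For MBD3 they were VASH1 (r = 0.995, −0.32), NRIP1 (r = 0.995, −0.48) and DNAJC9 (r = 0.992, −0.40). With 6 arrays in 2 groups and 12277 or more genes searched, such values largely restate the group difference.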

How the data were processed

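Total RNA of 6 single-colour arrays was analysed. The deposited table holds linear intensities from the authors for 33252 features, 1 per array, and how it was background-corrected, summarised and normalised is not given in the sources used here. Per the labels' protocols, Trizol and a Qiagen kit were used for RNA and an Ambion whole-transcript kit for biotin labelling. Features were named through the platform annotation (19460 with 1 symbol, 1754 with several, 12038 not listed), and each of 18417 genes was represented by its brightest feature.

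Values were taken as log2(intensity + 1), and the lines were set against each other in a moderated two-sided test (limma 3.58.1 under R 4.3.3) that leaves 4 residual degrees of freedom. Neighbours were the 12 nearest genes on each side outside the dimmest 33.3%, in RefSeq order (GRCh38.p14). The members and gene lists were chosen with earlier results of these data known. All members were named, with up to 3 rises and 3 falls per list that passed without overlap and the 3 genes most like each called member; list members that did not pass were chosen as examples after their values were seen, as were the single replication and mitotic genes. Alternatives were other pseudocounts (16 or none), normalisations, filters, feature rules, variance models, array weights and each array left out. In a further one the neighbours' median was taken off as a fixed value, with the gene's own SE kept. With 3 arrays per line, their number limits the precision. Other tools were Python 3.11.15, numpy 2.4.6, pandas 2.3.3, scipy 1.17.1 and matplotlib 3.10.9.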

Additional observations from a re-analysis of the deposited data

How the results depend on the processing

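Of 199 recomputed differences and slopes of the 10 genes, 178 kept their direction and side of the threshold, 11 lost a call, 1 gained one and 9 turned their sign. Only the differences of TET1 and MBD3 had a call to lose, so all 11 losses were theirs. The count of members lower was 2, and became 1 after quantile normalisation (without TET1, adjusted p = 0.0587) and 1 with the dimmest 33.3% left out, where TET1 was not tested. With 1 array left out it ranged between 0 and 1, and 0 members were higher in every one of these fits. Over all genes, array weights gave 2596 higher and 2746 lower, and leaving out 1 array gave 949 to 1665 higher and 939 to 1519 lower; the cause of the array-weight change was not tested. With 1 array left out, DNMT1 ranged between −0.156 and 0.036, UHRF1 between −0.239 and 0.228 and TDG between −0.009 and 0.242. With the neighbours' median taken off, DNMT1 differed by 0.034, UHRF1 by 0.013, DNMT3B by −0.47 (adjusted p = 0.0429) and MBD3 by −0.21 (adjusted p = 0.204). After quantile normalisation, the slope of DNMT3A with weeks was −0.007, that of TET1 with passage −0.021 and that of TET3 with weeks −0.001. No paired analysis was possible because the labels give passages and weeks, not replicate numbers shared by both lines.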
